A study of Mus musculus with 14 samples.

Results

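miR-21, miR-221 and miR-222 (mmu-miR-21, mmu-miR-221 and mmu-miR-222 on the array) are 3 microRNAs (miRNAs) that have been studied in reactive glia and in dividing cells. They were taken from the array by their names in the scanner files, and all 3 of the 566 mouse miRNAs named so were present. The study used the cuprizone (CPZ) model, in which a copper chelator in the chow kills oligodendrocytes and the corpus callosum, a large white matter tract, loses its myelin and regains it once the chelator is withdrawn. It asked which miRNAs change during demyelination and remyelination. Single-colour Agilent arrays measured 4 control mice on normal diet, 4 mice after 4 weeks of 0.2 to 0.4% CPZ in powdered chow (4wd), 4 mice given regular diet for 2 days after those 4 weeks (2dr) and 2 mice given it for 2 weeks (2wr). The labels state male mice, the methods give an age of 7 to 8 weeks at the start of CPZ, and neither gives a genotype or strain for the mice of these arrays. The tissue was a dissected tract holding all its cell types, so fewer cells of a type and less RNA per cell cannot be told apart.

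A miRNA is a short RNA that guides Argonaute proteins to messenger RNAs, mainly by pairing of its seed, bases 2 to 8, and lowers the protein made from them. miR-21 is known to hold back Pdcd4, which restrains growth, and is a known miRNA of activated astrocytes and macrophages. miR-221 and miR-222 are made from neighbouring hairpins and are known to hold back Cdkn1b and Cdkn1c, inhibitors of the cell cycle.

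The mature sequences below are shown because they decide which miRNAs could act on the same targets, and which could be read by the same probe. They were taken from RefSeq (GRCm38.p6), are written 5′ to 3′, and carry the seed in capitals.
miR-21 (miR-21a-5p): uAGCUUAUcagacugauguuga
miR-221 (miR-221-3p): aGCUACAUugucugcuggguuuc
miR-222 (miR-222-3p): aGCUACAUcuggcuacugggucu

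miR-21 lies on the minus strand at chr11:86584120-86584141, within the Mir21a hairpin, which overlaps the gene Vmp1. miR-221 lies at chrX:19146307-19146329 and miR-222 at chrX:19146901-19146923, both on the minus strand, in hairpins 504 bases apart that overlap no other gene of the table. miR-221 and miR-222 share their seed and their first 8 bases, while only 11 of 23 positions match when both are aligned from the 5′ end, and 5 single-base edits turn one into the other. The opposite strand of the miR-21 hairpin, miR-21* (miR-21a-3p, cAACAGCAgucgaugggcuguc), was on the array and was called detected on 0 of 14 arrays. RefSeq also lists miR-21c with the seed of miR-21, miR-1928 with the seed of miR-221, and miR-21b, whose seed differs from that of miR-21. No probes for these 3 were on the array.

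All 3 miRNAs were called detected on all 14 arrays and no spot of theirs was saturated. Total signal, the background-subtracted brightness summed over the spots of a miRNA, ran from 268.3 to 1472 for miR-21, from 188.7 to 760.5 for miR-221 and from 36.47 to 490.7 for miR-222. Signals were divided by the 75th percentile of each array over the 170 miRNAs detected on every array and taken to log2, so that 0 is the brightness of that percentile. The arrays detected 181 to 287 mouse miRNAs each, with summed signals from 45664 to 173924. By group, the summed signals ran from 85417 to 173924 in control and from 50187 to 90452 at 4wd. They ran from 45664 to 139285 at 2dr and from 72411 to 129989 at 2wr. Replicate 2 of 2dr had the lowest summed signal and the fewest detected miRNAs, and also the highest normalized value of miR-21 (1.84). They lay on 2 slides. Slide 1 held 8 arrays and slide 2 held 6, each with all 4 groups, although 3 of the 4 2dr arrays were on slide 1. In a fit with group and slide, 69 of the 225 miRNAs tested (30.7%) differed between slides at a limma adjusted p under 0.05. The differences between groups of the 3 miRNAs are therefore also given within slides where they are described. Each slide held 1 array of 2wr, and slide 2 held 1 array of 2dr, so these within-slide values can rest on a single array.

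None of the 3 miRNAs passed the threshold in any of the 6 comparisons between groups. The threshold was a limma adjusted p under 0.05 with at least a 2-fold difference. Few miRNAs passed it at all, namely 1 of 225 in 4wd against control (0.444%), 2 in 2dr against control (0.889%) and 0 in each of the other 4 comparisons. At an unadjusted limma p under 0.05, those 4 held 2 for 2wr against control (0.889%), 41 for 2dr against 4wd (18.2%), 11 for 2wr against 4wd (4.89%) and 2 for 2wr against 2dr (0.889%). Tested over the 4 groups together, the limma adjusted p was 0.522 for miR-21, 0.652 for miR-221 and 0.676 for miR-222, where 1 of 225 miRNAs passed (0.444%).

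**Figure D1:**
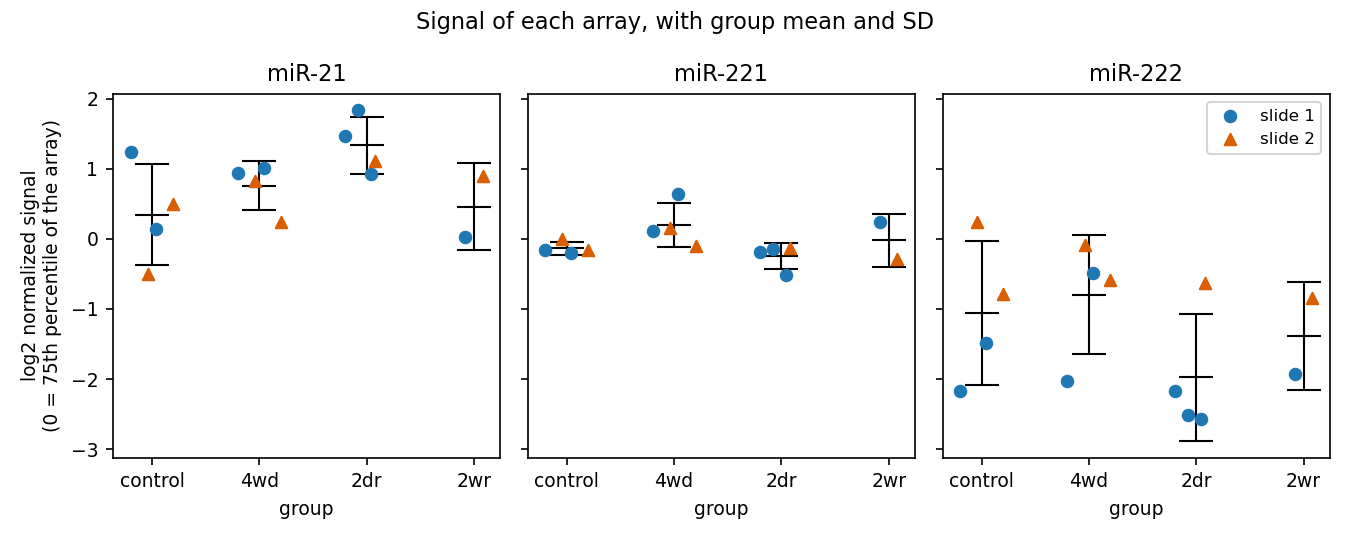
Log2 normalized signal (vertical axis, 0 is the 75th percentile of the array) of miR-21, miR-221 and miR-222 on each of the 14 arrays by group, with blue circles for slide 1 and orange triangles for slide 2, and black bars for the group mean and SD. miR-21 had its highest mean at 2dr (1.33), miR-221 stayed between -0.52 and 0.63, and miR-222 was mostly higher on slide 2 than on slide 1.

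miR-21 had its highest group mean at 2dr, on average 1.99-fold above control, but the controls themselves spread widely. Control arrays read 1.23, 0.15, -0.50 and 0.50 on the log2 scale (mean 0.34 ± 0.72, SD, n = 4). The 4wd arrays read 0.94, 1.01, 0.83 and 0.24 (0.76 ± 0.35, SD, n = 4). The 2dr arrays read 1.47, 1.84, 1.11 and 0.92 (1.33 ± 0.40, SD, n = 4), and the 2wr arrays 0.02 and 0.90 (0.46 ± 0.62, SD, n = 2). Every 4wd and 2dr array lay above at least 2 of the controls, yet replicate 1 of control was brighter than all 4wd arrays and than 2 of the 4 2dr arrays.

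The 2dr mean of miR-21 exceeded the control mean by 0.99 on the log2 scale (SE 0.36, 95% interval 0.21 to 1.77). Over the 225 miRNAs limma gave an adjusted p = 0.368 (unadjusted p = 0.0169), and an exact two-sided permutation test gave p = 0.0857, where 4 against 4 arrays cannot go below 0.0286. At an unadjusted p under 0.05, 27 of 225 miRNAs passed in this comparison (12%), and 4 had a larger difference than miR-21. The median difference of all tested miRNAs was -0.25 here, and relative to it miR-21 differed by 1.24. Within slide 1 the difference was 0.72 (3 against 2 arrays), and within slide 2 it was 1.12 (1 against 2 arrays). Without replicate 2 of 2dr, the array with the lowest summed signal, it was 0.82 over both slides.

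Against 4wd, miR-21 at 2dr was higher by 0.58 (SE 0.36, limma adjusted p = 0.402), with 3 of 4 arrays above every 4wd array and an exact permutation p = 0.0857. Within slides 1 and 2 this difference was 0.43 and 0.58. The 2wr mean was 0.87 below the 2dr mean (a log2 difference of -0.87, 95% interval -1.83 to 0.08, limma adjusted p = 1.0). Both 2wr arrays lay below every 2dr array, which held for 3.11% of the tested miRNAs in that direction. The exact permutation p was 0.133 (unadjusted limma p = 0.0694), which is the smallest that 2 against 4 arrays can give. Only 1 of the 225 miRNAs had a lower difference in this comparison. Within slide 1 this difference was -1.39 (1 against 3 arrays) and within slide 2 it was -0.22 (1 against 1 array). It was -0.44 without replicate 1 of 2wr and -1.31 without replicate 2. The 2 arrays of 2wr disagreed in their position against control, at -0.67 on slide 1 and 0.90 on slide 2, and the mean difference of 0.12 had an interval of -0.84 to 1.07. The 4wd mean was 0.41 above control (95% interval -0.37 to 1.19, limma adjusted p = 0.771, exact permutation p = 0.343), and 0.29 and 0.54 above it within slides 1 and 2.

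miR-221 had the narrowest range of the 3 miRNAs across arrays, and its largest mean difference from control was 1.26-fold, at 4wd. Control arrays read -0.17, -0.21, 0.00 and -0.16 (mean -0.13 ± 0.09, SD, n = 4). The 4wd arrays read 0.11, 0.63, 0.15 and -0.10 (0.20 ± 0.31, SD, n = 4), with 3 of 4 above every control. The 2dr arrays read -0.18, -0.15, -0.13 and -0.52 (-0.24 ± 0.18, SD, n = 4), and the 2wr arrays 0.24 and -0.29 (-0.02 ± 0.38, SD, n = 2).

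Against control, miR-221 differed by 0.33 at 4wd (limma adjusted p = 0.553, exact permutation p = 0.0571), by -0.11 at 2dr (limma adjusted p = 0.775, exact permutation p = 0.486) and by 0.11 at 2wr (limma adjusted p = 0.996, exact permutation p = 0.667). The 95% intervals of these ran from 0.927- to 1.71-fold at 4wd, from 0.681- to 1.26-fold at 2dr and from 0.742- to 1.57-fold at 2wr. With this scaling and the total signal, a 2-fold difference in either direction lay outside all 3. Without scaling, the 4wd difference was -0.64. The direction at 2dr depends on the reference, since relative to the median of all tested miRNAs the difference was 0.14, and with the percentile taken over all mouse miRNAs it was 0.17. The 4wd difference was 0.56 within slide 1 and 0.11 within slide 2, the 2dr difference -0.09 and -0.06, and the 2wr difference changed sign between slides, at 0.43 and -0.21.

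The clearest separation of miR-221 was between 2dr and 4wd. All 4 2dr arrays lay below all 4 4wd arrays, which held for 7.56% of the tested miRNAs in that direction. The difference was -0.44 on the log2 scale (SE 0.20, 95% interval -0.89 to -0.003). Its exact permutation p was 0.0286, the smallest this design can give, while limma gave p = 0.0488 and an adjusted p = 0.273, so it failed the correction. At an unadjusted p under 0.05, 41 of 225 miRNAs passed in this comparison (18.2%), and the median of all tested miRNAs was -0.30. Relative to that median, miR-221 differed by -0.15. Within slide 1 the difference was -0.65, and within slide 2 it was -0.16.

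miR-222 differed between the slides, while none of its differences between groups passed the threshold. Control arrays read -2.17, -1.49, 0.23 and -0.79 (mean -1.05 ± 1.03, SD, n = 4). The 4wd arrays read -2.03, -0.48, -0.09 and -0.59 (-0.80 ± 0.85, SD, n = 4). The 2dr arrays read -2.18, -2.52, -0.64 and -2.58 (-1.98 ± 0.91, SD, n = 4), and the 2wr arrays -1.93 and -0.84 (-1.38 ± 0.77, SD, n = 2). In control, 2dr and 2wr, the arrays of slide 2 were all brighter than those of slide 1, and over all groups 7 of the 8 slide 1 arrays lay below every slide 2 array. The exception was replicate 2 of 4wd.

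In the fit with group and slide, miR-222 was 2.53-fold higher on slide 2 than on slide 1 (1.34 on the log2 scale, SE 0.28, limma adjusted p = 0.00479). Slide differences of -0.28 for miR-21 (limma adjusted p = 0.483) and of -0.12 for miR-221 (limma adjusted p = 0.600) did not pass. The SD of miR-222 over the 8 slide 1 arrays was 0.67 and over the 6 slide 2 arrays 0.43, against 0.94 over all 14.

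The lowest group mean of miR-222 was at 2dr, where 3 of 4 arrays lay below every control and below every 4wd array. Those 3 were the slide 1 arrays of 2dr. The difference from control was -0.92 (SE 0.59, 95% interval -2.21 to 0.36, limma adjusted p = 0.449, exact permutation p = 0.229). The difference from 4wd was -1.18 (SE 0.59, 95% interval -2.46 to 0.10, limma adjusted p = 0.307, exact permutation p = 0.0571). With slide as a block, these became -0.59 (limma adjusted p = 0.376) and -0.84 (limma adjusted p = 0.174). Within slides, 2dr minus control was -0.60 and -0.36, and 2dr minus 4wd was -1.17 and -0.30. The 4wd mean was 0.25 above control (limma adjusted p = 0.965) and the 2wr mean 0.33 below it (a log2 difference of -0.33, limma adjusted p = 0.996). Within slides 1 and 2, miR-222 differed from control at 4wd by 0.57 and -0.06, with a change of sign, and at 2wr by -0.10 and -0.56. The intervals against control reached from 0.217- to 2.90-fold over the 3 comparisons, and each held a 2-fold difference in at least 1 direction, so differences of that size were not resolved at this number of arrays.

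**Figure D2:**
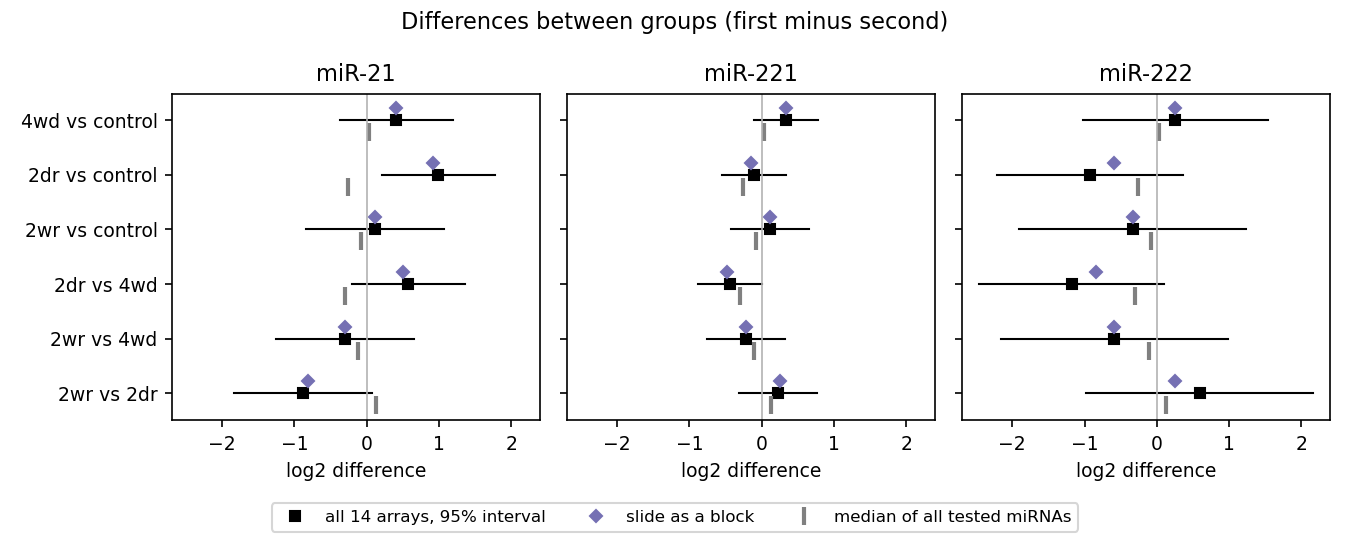
Log2 difference (horizontal axis) of each comparison (vertical axis, first group minus second) for the 3 miRNAs, with black squares and 95% intervals from all 14 arrays, purple diamonds with slide as a block, and grey ticks at the median of all tested miRNAs. Of the 18 intervals, those of miR-21 in 2dr against control and miR-221 in 2dr against 4wd leave out 0, both before adjustment over miRNAs, and the block moves miR-222 most.

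Each miRNA was read by 2 probes, each printed as 10 spots per array. The median coefficient of variation between spots of a probe ran from 3.91% to 10.6%, with 46.8% as the highest on any array, for A_54_P2640 of miR-221. Both miR-21 probes gave 2dr above control, by 1.09 for A_54_P1307 and by 0.78 for A_54_P1308. Both miR-222 probes gave 2dr below control, at -1.0 and -0.87. For miR-221, A_54_P2640 gave a difference of -0.36 at 2dr and A_54_P3830 gave 0.00, so the probes disagreed there. Both gave 2dr below 4wd, at -0.61 and -0.36.

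The slides shifted the probes of one miRNA unequally. A_54_P1307 of miR-21 had a mean 0.68 lower on slide 2 than on slide 1 (a log2 difference of -0.68), while A_54_P1308 moved by 0.07. The log2 gap between them ran from 1.24 to 1.60 on slide 1 and from 0.56 to 0.73 on slide 2, with no overlap (exact two-sided permutation p = 6.66e-04 over 8 and 6 arrays, the smallest they can give). For miR-221, A_54_P2640 moved by 0.44 and A_54_P3830 by -0.32, and the gap, which ran from -1.73 to -1.05 on slide 1 and from -0.65 to -0.45 on slide 2, again did not overlap (exact permutation p = 6.66e-04). Both probes of miR-222 moved together, by 1.46 and 1.48, and the gap did not differ detectably (exact permutation p = 0.795). Across all 14 arrays the probes of miR-21 had r = 0.815, those of miR-221 r = 0.279 and those of miR-222 r = 0.991. Within slides, the pair of miR-21 had r = 0.979 and 0.998 and the pair of miR-221 r = 0.849 and 0.908. These correlations are over arrays that share the same spots and scaling, and are given as a description. The total signal of miR-21 and miR-221 therefore sums 2 probes whose balance differed by slide, and the part of this in the group differences was not tested.

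**Figure D3:**
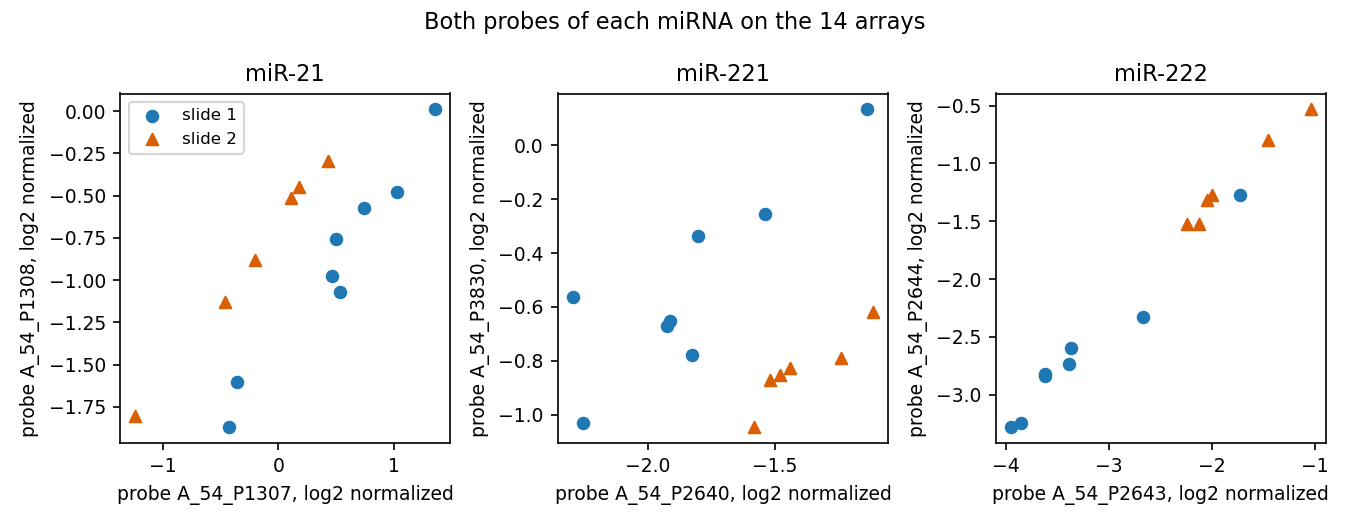
Log2 normalized signal of one probe (horizontal axis) against the other probe (vertical axis) of miR-21, miR-221 and miR-222, one point per array, with blue circles for slide 1 and orange triangles for slide 2. The slides form separate lines for miR-21 and miR-221, where r is 0.815 and 0.279 over all arrays, and one line for miR-222, where r is 0.991.

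Across all arrays miR-221 and miR-222 had a Pearson r of 0.384 (Spearman rho 0.556, n = 14), and 70 of the 224 other tested miRNAs were more like miR-221 than miR-222 was. Within slide 1 the correlation was 0.80 (n = 8) and within slide 2 it was 0.805 (n = 6), and with slide means removed it was 0.793. The pair from neighbouring hairpins varied together within each slide, and the slides lay apart in miR-222. The arrays share their scaling, and these values are a description. miR-222 changed relative to miR-221 by -0.81 from control to 2dr (exact permutation p = 0.286) and by -0.74 from 4wd to 2dr (exact permutation p = 0.286), and in the other 4 comparisons the exact permutation p ran from 0.533 to 0.971. Within slides these 2 changes were -0.50 and -0.30, and -0.52 and -0.14, of one sign on both slides. With slide as a term and arrays relabelled only within slides, a test chosen after the data had been seen, the changes were -0.43 (exact permutation p = 0.267) and -0.38 (exact permutation p = 0.233), where the smallest p it allows is 0.0333. An unequal change of the 2 miRNAs did not pass either test.

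**Figure D4:**
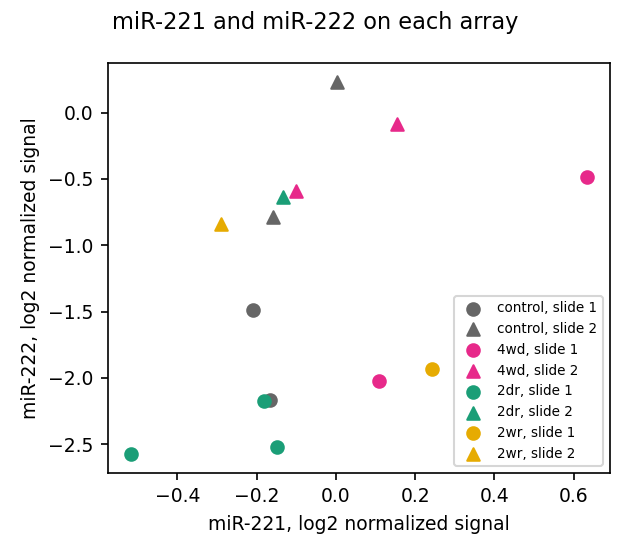
Log2 normalized signal of miR-221 (horizontal axis) against miR-222 (vertical axis) on each of the 14 arrays, coloured by group, with circles for slide 1 and triangles for slide 2. The slides lie on separate rising bands, with r of 0.80 and 0.805 within them against 0.384 over all arrays.

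The miRNA whose signal over the 14 arrays was most like that of miR-21 was miR-20a, with a Pearson r of 0.902. It was followed by miR-142-3p (r = 0.870), miR-20b (r = 0.842), miR-19b (r = 0.837) and miR-27a (r = 0.741), where the median over all 224 miRNAs was -0.148. miR-20a, miR-20b and miR-19b belong to the miR-17-92 and related clusters, and miR-142-3p is made in blood-derived cells and microglia. With slide means removed, miR-20a had r = 0.893 and miR-142-3p r = 0.891. The likeness to miR-142-3p includes 3 arrays on which it was not called detected. miR-20a and miR-20b, printed below because a probe may not separate them, differ by 2 base edits and share a seed, and their values are uncertain for that reason.
miR-20a (miR-20a-5p): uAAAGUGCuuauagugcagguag
miR-20b (miR-20b-5p): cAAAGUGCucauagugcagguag

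At 2dr against control, miR-20a differed by 0.93 (limma adjusted p = 0.368), miR-20b by 0.73 (limma adjusted p = 0.368), miR-19b by 0.64 (limma adjusted p = 0.449), miR-27a by 0.45 (limma adjusted p = 0.422) and miR-142-3p by 2.69 (limma adjusted p = 0.201). None of the 5 passed the threshold there. miR-142-3p was called detected on 2 of 4 control arrays and entered the tests only through 4wd and 2dr. Its difference is therefore partly against values not called detected. miR-21 itself had r = -0.139 with miR-221 and r = -0.520 with miR-222, so it varied apart from the pair.

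**Figure D5:**
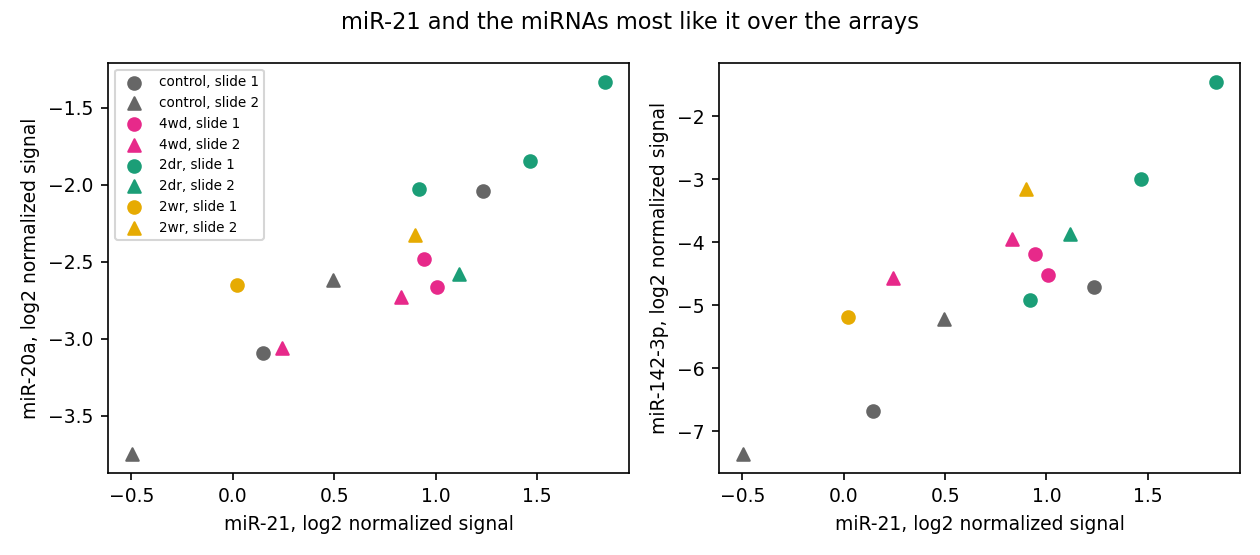
Log2 normalized signal of miR-21 (horizontal axes) against miR-20a and miR-142-3p (vertical axes) on each of the 14 arrays, coloured by group, with circles for slide 1 and triangles for slide 2. Both rise with miR-21, with r of 0.902 and 0.870, and the lowest and highest points are a control array and a 2dr array. That 2dr array, replicate 2, had the lowest summed signal of all arrays.

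The 5 miRNAs most like miR-221 were miR-485 (r = 0.779), miR-129-3p (r = 0.750), miR-124 (r = 0.739), miR-154 (r = 0.716) and miR-409-5p (r = 0.715). miR-124 is the best known miRNA of neurons, and miR-485, miR-154 and miR-409-5p come from the imprinted Dlk1-Dio3 region. Their correlations within slides ran from 0.656 to 0.874. The 5 most like miR-222 were miR-138 (r = 0.934), miR-541 (r = 0.922), miR-30d (r = 0.898), miR-466f-3p (r = 0.880) and miR-181d (r = 0.875). All 5 of these were higher on slide 2 too, by 0.57 to 5.05 on the log2 scale, with limma adjusted p from 2.88e-05 to 0.0174. With slide means removed, their correlations with miR-222 were 0.608 to 0.804, beside 0.793 for miR-221. miR-466f-3p, which differed by 5.05 between slides, was called detected on only 10 of 14 arrays, and miR-541 on 13. The slide differences and correlations of these miRNAs therefore include values not called detected.

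Of 14 miRNAs known to restrain growth, all 14 were tested and 0 passed. Their median was -0.28 at 4wd and 0.03 at 2dr, beside 0.03 and -0.25 for all tested miRNAs. miR-34a, a target of p53, differed by 1.02 at 4wd (limma adjusted p = 0.402) and by 1.13 at 2dr (limma adjusted p = 0.201). In the other direction, miR-338-3p of the same list differed by -1.17 at 4wd (limma adjusted p = 0.402) and by -0.74 at 2dr (limma adjusted p = 0.454). This list overlaps the cell type markers given below. miR-338-3p and miR-219 are also oligodendrocyte markers, and miR-124, miR-128 and miR-137 are also neuron markers.

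Of 11 miRNAs known from activated glia, 10 were tested. miR-155, which promotes inflammatory signalling, was called detected on 0 of 4 control arrays, 1 of 4 4wd arrays, 4 of 4 2dr arrays and 1 of 2 2wr arrays. It entered the tests only through 2dr, where it was high, and its calls at 4wd and 2dr were made against values not called detected, so they are counted but not read further. miR-146a, detected on all 14 arrays, which restrains Toll-like receptor signalling, passed at 2dr (2.67, limma adjusted p = 0.0136). None of the 10 was called lower, and the list's median at 2dr, with miR-155 counted, was -0.03, beside -0.25 for all tested miRNAs. At an unadjusted limma p under 0.05, 2 of the 10 were higher at 2dr, miR-155 and miR-146a, and 2 were lower. Among all tested miRNAs 27 of 225 passed that in either direction (12%). The lower 2 were miR-181d at -0.88 and miR-181b at -0.64 (limma adjusted p = 0.368 for each). miR-155 and miR-146a were the 2 miRNAs called at 2dr, and miR-155 the 1 called at 4wd. By limma p, miR-21 ranked 9 of 225 in 2dr against control and 79 in 4wd against control.

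Marker miRNAs of other cell types are given beside these values, as summed levels relative to the 75th percentile. Of 5 myeloid markers 4 were tested. The sum of all 5 ran from 0.953 to 1.14 on control arrays, from 1.13 to 1.41 at 4wd, from 1.05 to 2.43 at 2dr and from 1.21 to 1.44 at 2wr. On control arrays that sum was mostly miR-342-3p, whose mean there was 0.03 on the log2 scale. The control means were -5.99 for miR-142-3p, -5.94 for miR-223 and -8.68 for miR-155. miR-142-5p was detected on 1 of 14 arrays, at 2wr, and miR-223 on all 4 control arrays, 0 of 4 4wd arrays, 3 of 4 2dr arrays and 1 of 2 2wr arrays. No median of the 4 tested is given, because miR-155 entered the tests only through 2dr, where it was high. miR-342-3p, detected on all 14 arrays, differed from control by 0.23 at 4wd, 0.31 at 2dr and 0.23 at 2wr. For miR-223 these differences were -0.91, 0.03 and 0.36. They were 1.69, 2.69 and 1.83 for miR-142-3p, which was called detected on only 2 of 4 control arrays. Of 3 oligodendrocyte markers of the labelled tissue, 2 were detected on every array, and the sum of all 3 ran from 1.96 to 10.9 in control, from 1.45 to 2.63 at 4wd, from 1.76 to 6.73 at 2dr and from 3.10 to 3.54 at 2wr. The 2 were miR-338-3p and miR-219, which differed from control at 4wd by -1.17 (limma adjusted p = 0.402) and -0.83 (limma adjusted p = 0.601). The third, miR-338-5p, entered the tests only through control, where it was high, so its differences are not read. The 5 neuron markers, all detected on every array, summed to 21.5 to 28.0 in control, 13 to 38.5 at 4wd, 17.5 to 27.6 at 2dr and 19.3 to 27.9 at 2wr. Sums of the red blood cell markers (0.365 to 0.986 over all arrays, miR-144 detected on none) and of the vessel markers (0.690 to 1.26) overlapped between all groups. They were mostly miR-451 and miR-126-3p, with control means of -0.84 and -0.23 on the log2 scale. The next brightest in control were miR-486 at -5.20 and miR-143 at -3.99. The part of any cell type in the values of miR-21, miR-221 and miR-222 was not tested.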

How the data were processed

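Total RNA (100 ng) of the corpus callosum was labeled with Cy3 and hybridized to Agilent mouse miRNA arrays. The deposited scanner files hold signal intensity per spot and a background-subtracted total signal intensity per miRNA, made by the authors with Agilent Feature Extraction 10.5.1.1 (per the submitters' processing notes and the file headers, the methods naming a later release). They are not scaled between arrays. A series table deposited by the authors gives log2 values near the total signal over the 75th percentile (within 0.01, up to a constant per array, for 559 or 560 of 560 miRNAs on 13 arrays and for 368 on replicate 1 of 4wd), and was used only as an alternative.

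The total signal was divided by each array's 75th percentile computed from the 170 miRNAs that every array detected. Values below 0.00176 (-9.15 as log2) were raised to it before log2 was taken. Tests covered the 225 of 566 miRNAs that some group detected on each of its arrays. One model of the 4 groups was fitted with limma 3.58.1 (R 4.3.3), with Benjamini-Hochberg adjustment over all tested miRNAs and a call at an adjusted p under 0.05 and at least 2-fold. Exact two-sided permutation tests used scipy 1.17.1. The fit was tested on simulated data with independent noise on each array and no difference between slides. That run therefore does not cover the slide differences found here. Replicate numbers came from the titles, which number the 2wr arrays differently from their source names. The labels do not say that replicates came from separate experiments, so p-values measure the spread between these arrays. The number of arrays limits the precision.

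The 3 miRNAs, the lists and the markers were chosen with earlier results of these data known. Named are the 3 miRNAs, miR-21*, same-seed miRNAs, list and marker members, and the 5 most correlated miRNAs of each. The result of 1 further list of miRNAs is not reported here. Mature sequences came from RefSeq for all 3, matched by name. The array design used another build (mm9), and its coordinates were not used. Slides were read from the barcode in the header of each scanner file. The test of the gap between probes over slides was chosen after the values had been seen.

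Alternatives were the mean of spots, normexp background correction (offset 50, on the spots' median signal, as no mean signal was in the columns used), other scalings, filters and floors, slide or replicate number as a block, a robust trend, only the groups compared, the authors' values, the methods' test and each array left out in turn. Of 18 pairs of arrays with the same replicate number, 13 had residuals around the group means with r over 0.1 (lowest r -0.61), and 13 shared a slide, so replicate numbers were not used as pairs. Arrays of one group differed by a median of at least 0.29 (log2) over miRNAs, so none was a copy of another.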

Additional observations from a re-analysis of the deposited data

Results flagged for a closer look

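In 2dr, replicate 4 read -0.52 for miR-221 while the other 3 arrays read -0.18, -0.15 and -0.13, a gap to its nearest neighbour of 0.872 of the group's whole range, above Dixon's 95% critical value of 0.829. It was the only such array among the 9 groups of 4 examined, and chance marks about 1 in 20. All 4 arrays lay below every 4wd array.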

How the results depend on the processing

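None of the 3 miRNAs passed the threshold in any of the 6 comparisons under any of 14 alternatives or with any of the 14 arrays left out, and the lowest adjusted p among the alternatives was 0.0883 (miR-222, 2dr against 4wd, normexp). Of 18 differences, 7 kept their direction throughout. Without scaling, where the median of all miRNAs moved to -0.93 at 4wd, -0.66 at 2dr and -0.49 at 2wr against control, the 4wd differences of miR-21, miR-221 and miR-222 were -0.56, -0.64 and -0.72, the 2wr differences of miR-21 and miR-221 were -0.30 and -0.31, miR-221 in 2dr against 4wd was 0.13, and miR-21 and miR-221 in 2wr against 4wd were 0.26 and 0.33. Relative to that median the 4wd differences were 0.37, 0.29 and 0.21, but with normexp, where the median of all miRNAs was 0.82, they were -0.72, -0.56 and -0.23, so their direction relative to other miRNAs depends on the background correction. miR-221 at 2dr was 0.17 with the percentile over all mouse miRNAs and 0.15 in the authors' values. With the replicate block, miR-21 at 2wr was -0.18 and miR-222 at 2wr was 0.20, and the block changed no call of the 3. That block numbers the 2wr arrays by their titles (1 and 2), while another label numbers them otherwise. With slide as a term, the change of miR-222 relative to miR-221 in 2wr against 2dr was -0.037, against 0.37 without it.

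With 1 array left out, miR-222 at 4wd ranged from -0.12 (without control replicate 1) to 0.68. At 2wr, miR-21 ranged from -0.32 to 0.55, miR-221 from -0.16 to 0.37 and miR-222 from -0.88 to 0.21. In 2wr against 4wd, miR-21 ranged from -0.73 to 0.14 and miR-221 from -0.49 to 0.043, and miR-221 in 2wr against 2dr from -0.045 to 0.49. These turned without replicate 1 or 2 of 2wr, or without control replicate 3, and the 2wr array that remains then takes its spread from the arrays of the other groups. miR-21 ranged from 0.13 (without control replicate 3) to 0.71 (without control replicate 1) at 4wd and from 0.71 to 1.29 at 2dr, and miR-222 at 2dr from -1.37 (without 2dr replicate 3) to -0.50 (without control replicate 3).

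Counts of miRNAs called at 4wd were 81 with normexp and 0 with the methods' test, the robust trend, a lower floor, the mean of the spots, no filter, quantile normalization, the filter to detection on every array and no scaling, and 0 to 1 with 1 array left out. At 2dr they were 0 with normexp, no scaling and the methods' test, 1 with no filter and with the filter to detection on every array, and 1 to 2 with 1 array left out. At 2wr they were 1 with the percentile over all miRNAs, the slide block and the authors' values, and 0 to 1 with 1 array left out. The cause of these moves was not tested.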
